A study of Mus musculus with 12 samples.

Results

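Acute-phase proteins are plasma proteins that the liver makes in larger or smaller amounts during inflammation, infection or tissue injury. The genes described here are 10 mouse genes grouped as acute-phase genes, namely Saa1, Saa2, Saa3, Orm1, Orm2, Lcn2, Apcs, Hp, Hpx and Steap4. Of these, Steap4 encodes a membrane protein and not a plasma protein. The 10 genes were chosen by name and matched by gene symbol to the identifiers in the count files, which list 47729 genes. All 10 passed the filter on low counts, which 16823 genes passed in all, so no member was lost to it.

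Livers came from 12 mice, 4 in each of 3 groups. STAM mice are male C57BL/6 mice that received streptozotocin, a toxin of insulin-producing beta cells, as a single injection on day 2 after birth and a high-fat diet from week 4, and they are used as a model of non-alcoholic steatohepatitis (NASH). The STAM_vehicle mice were given vehicle by mouth once a day from week 6 to week 9. The STAM_treated mice were given 10 mg/kg I-BET151 over the same weeks. I-BET151 is a small molecule that blocks the bromodomains of the BET proteins, which bind acetylated histones and help transcription. The Naive_vehicle mice are healthy wild-type animals given vehicle, without streptozotocin and without the high-fat diet, so the toxin and the diet cannot be told apart in a comparison with them. The groups are called healthy, vehicle and I-BET151 below, after the study's own names, and each mouse by its number in the labels. The I-BET151 formulation contained other carriers than the vehicle did, and no STAM group received those carriers alone.

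The acute-phase response is driven mostly by cytokines of the interleukin-6 and interleukin-1 families. In hepatocytes these act through STAT3, NF-kappaB and the C/EBP transcription factors, and glucocorticoids enhance the response. Its products bind haem and haemoglobin, withhold iron from bacteria, opsonise debris or travel on lipoproteins. In fatty liver disease they are followed as signs of a low-grade inflammation of the liver.

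Whole liver RNA was sequenced, and total counts per mouse lay between 34711229 and 53365596, so that 1 count was worth 0.0179 to 0.0301 CPM. CPM stands for counts-per-million of the TMM-normalised library. In bulk tissue, fewer cells of a type and less RNA per cell cannot be told apart. I-BET151 mouse 3 stood apart from the other 11 mice before any gene was compared. Its normalisation (TMM) factor of 1.61 compares with 0.770 to 1.11 elsewhere, and 2.71% of its counts were mitochondrial against 4.51% to 7.30%. The summed level of 7 hepatocyte markers, albumin among them, was 21543 CPM in this mouse against 55675 to 125468 CPM in the others. It had the lowest total count and the most genes with a count (24304) of the 12 libraries. The study's methods set aside 1 I-BET151 library, for low gene counts, without saying which, and all 4 were kept here. The comparisons and the spread among I-BET151 mice are given with and without mouse 3. All 7 hepatocyte markers, which define the labelled tissue, were detected in every mouse.

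The start regions of the genes are shown first, because the factors named above bind near the start of acute-phase genes. RefSeq windows (assembly GRCm38.p6) from 250 bases before to 50 bases after the transcription start were found for 8 of the 10 genes, all but Orm1 and Hp. Capitals mark every match, on either strand, to the C/EBP letters TTNNGNAA. The serum amyloid A genes, the Orm2 gene and the Lcn2 gene are printed 5′ to 3′.
Saa1, chr7:46742931-46743230, minus strand: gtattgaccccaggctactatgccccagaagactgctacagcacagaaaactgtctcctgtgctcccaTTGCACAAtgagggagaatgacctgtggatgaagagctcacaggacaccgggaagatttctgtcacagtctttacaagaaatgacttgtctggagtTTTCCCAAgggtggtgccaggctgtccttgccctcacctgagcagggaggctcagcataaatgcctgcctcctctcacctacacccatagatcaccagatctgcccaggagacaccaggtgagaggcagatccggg
Saa2, chr7:46751583-46751882, plus strand: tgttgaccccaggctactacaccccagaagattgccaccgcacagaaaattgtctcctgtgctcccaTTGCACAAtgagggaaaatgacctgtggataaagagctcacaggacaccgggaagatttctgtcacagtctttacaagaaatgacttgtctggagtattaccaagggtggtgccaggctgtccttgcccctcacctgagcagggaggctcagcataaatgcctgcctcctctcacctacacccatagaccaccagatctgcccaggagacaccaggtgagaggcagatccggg
Saa3, chr7:46715627-46715926, minus strand: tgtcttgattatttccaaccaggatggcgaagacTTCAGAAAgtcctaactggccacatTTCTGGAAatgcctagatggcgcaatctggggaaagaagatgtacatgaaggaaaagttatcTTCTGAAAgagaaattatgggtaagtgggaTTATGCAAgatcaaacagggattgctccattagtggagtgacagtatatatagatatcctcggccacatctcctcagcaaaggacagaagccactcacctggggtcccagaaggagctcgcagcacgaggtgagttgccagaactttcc
Orm2, chr4:63362199-63362498, plus strand: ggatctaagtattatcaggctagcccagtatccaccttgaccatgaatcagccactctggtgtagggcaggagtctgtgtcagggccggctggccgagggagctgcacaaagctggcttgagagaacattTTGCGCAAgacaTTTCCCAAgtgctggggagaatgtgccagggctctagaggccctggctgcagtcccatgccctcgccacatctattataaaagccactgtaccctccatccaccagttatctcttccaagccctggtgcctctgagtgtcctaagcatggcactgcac
Lcn2, chr2:32387690-32387989, minus strand: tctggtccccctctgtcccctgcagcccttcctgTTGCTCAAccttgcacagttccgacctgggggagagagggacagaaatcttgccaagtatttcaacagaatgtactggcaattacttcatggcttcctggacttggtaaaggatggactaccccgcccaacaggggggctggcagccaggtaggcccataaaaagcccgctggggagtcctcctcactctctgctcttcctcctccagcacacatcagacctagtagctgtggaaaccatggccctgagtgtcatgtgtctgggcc

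The Saa1 and Saa2 windows were 95.3% identical over the alignment, and both carry the match TTGCACAA, 182 bases before the start in Saa1 and 183 bases before it in Saa2. Saa1 has another match, 86 bases before the start. The Saa3 window, at 50.1% identity to that of Saa1, has 4 matches of other letters. Orm2 has the match TTGCGCAA 120 bases before its start, and another at 108 bases. Lcn2 has 1 match, 216 bases before its start. Of the remaining windows, Hpx and Steap4 have 2 matches each and Apcs has none. Over all 32851 windows of this length, 40.7% held a C/EBP match, against 7 of the 8 members with a window. The STAT letters TTCNNNGAA were found in Apcs and in Steap4 (8.3% of all windows), and the NF-kappaB consensus in Steap4 (5.8% of all windows). In Steap4 the first C/EBP match overlaps the NF-kappaB match. Such matches are descriptions of letters, and binding was not measured.

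The genes lie on 6 chromosomes of the mouse genome (GRCm38, GENCODE M21), all annotated as protein coding. Saa3 (chr7:46711998-46715700), Saa1 (chr7:46740497-46742980) and Saa2 (chr7:46751790-46754313) form a cluster in which Saa1 and Saa2 run in opposite directions with 8809 bases between them. Orm1 (chr4:63344560-63348163) and Orm2 (chr4:63362449-63365878) lie 14285 bases apart on the plus strand. Lcn2 is at chr2:32384633-32388252, Apcs at chr1:172893961-172895041, Hp at chr8:109575128-109579172, Hpx at chr7:105591613-105600137 and Steap4 at chr5:7960457-7982213. The main transcripts of Saa1 and Saa2 were 87.3% identical, and those of Orm1 and Orm2 91.0%. No stretch of 101 bases was shared between Saa1 and Saa2, whereas 45 of 675 such stretches of Orm1 were also in Orm2. The split of reads between Orm1 and Orm2 is therefore less certain than that between Saa1 and Saa2.

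In vehicle livers, the serum amyloid A genes Saa1 and Saa2, the orosomucoid gene Orm2 and the lipocalin gene Lcn2 were all above healthy livers in every mouse, and Lcn2 passed the test. The abundant gene Hp, which encodes a haemoglobin carrier, was slightly lower in every vehicle mouse and did not pass the test, and the vehicle and healthy mice overlapped in the other 5 genes. In I-BET151 livers, 9 of the 10 genes reached from below to above the range of the vehicle mice, all but Saa3, which went below it only. The share of all tested genes with such a reach was not counted. Mice 4 and 1 were at the top of nearly every gene, mouse 2 was near or below the vehicle mice, and mouse 3 was below all of them. Tested genes in general were also more spread among I-BET151 than among vehicle mice (median SD of log2 CPM 0.42 against 0.19). Mouse 3 was lowest of its group in 39.3% of them. edgeR's quasi-likelihood test called no member between the I-BET151 and vehicle groups. With all mice kept, DESeq2 called 0 and limma-voom with sample weights 3. DESeq2 without mouse 3, a choice made after seeing the data, called 4. The genes are given with that comparison.

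**Figure D1:**
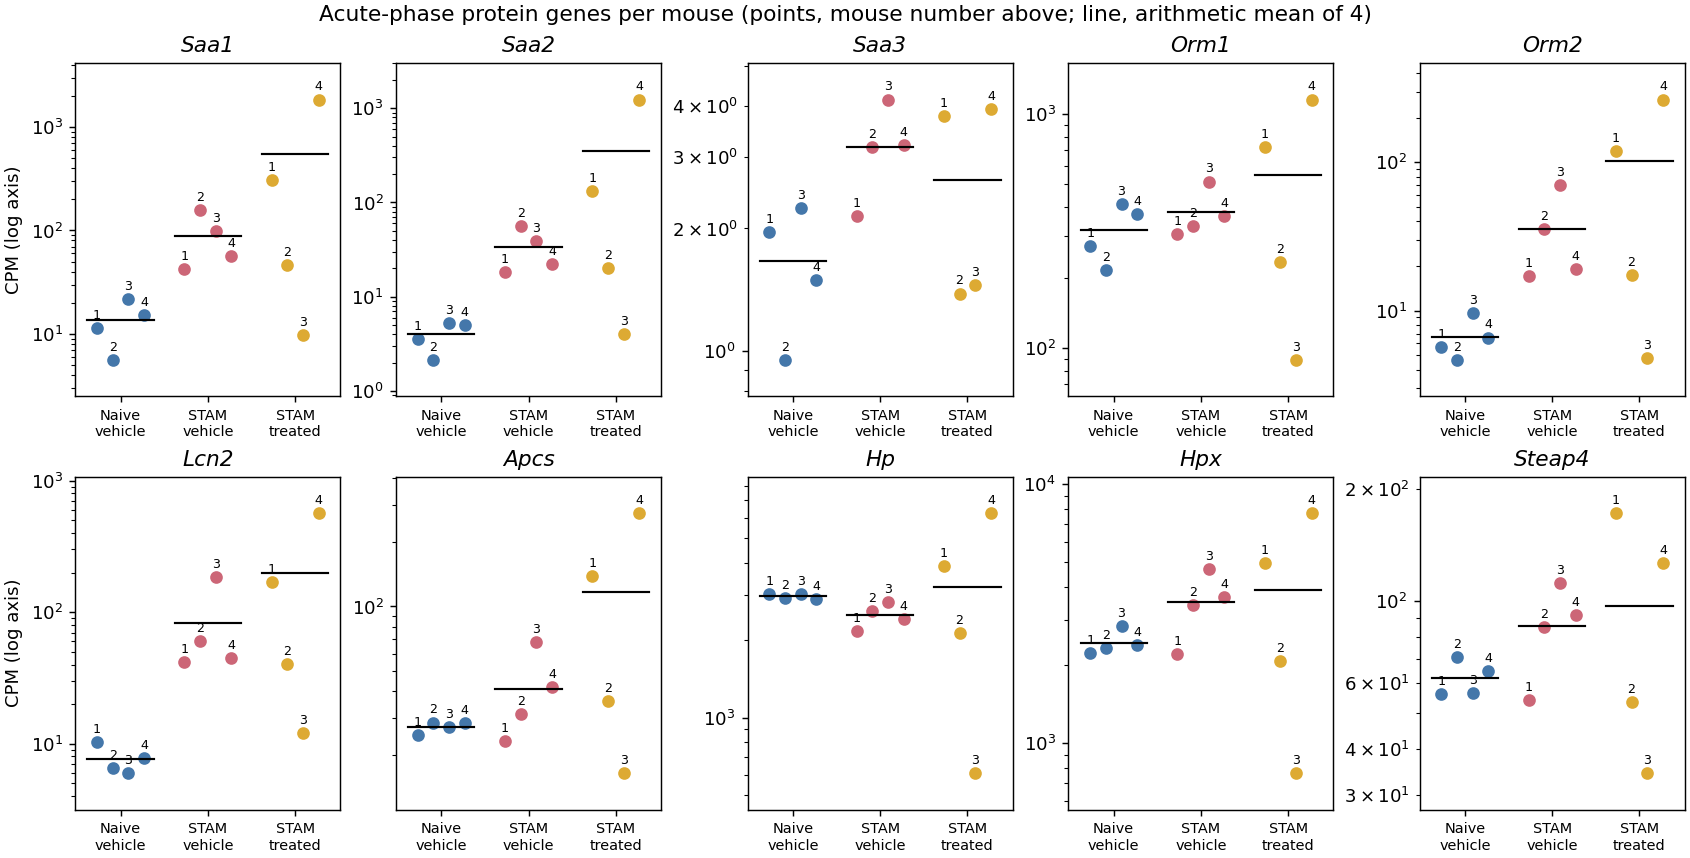
Level of each of the 10 genes in CPM (vertical log axes, 1 panel per gene) in each mouse of the healthy (Naive_vehicle), vehicle (STAM_vehicle) and I-BET151 (STAM_treated) groups. Points are mice with their label number, and lines are arithmetic means of 4 mice. In Saa1 the I-BET151 mice reach from 9.74 to 1839.9 CPM, whereas the vehicle mice lie between 42.2 and 158 CPM.

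Levels between genes were compared per kilobase of the main transcript, as CPM per kb. In healthy liver Hp was highest at 2208 ± 53 CPM per kb (SD, n = 4), followed by Hpx at 1633 ± 182, and Orm1 at 412 ± 118. These 3 did not overlap with each other or with the next gene. Apcs, Saa1 and Steap4 followed at means of 28.1, 22.2 and 19.7 CPM per kb and overlapped in turn. Orm2, Lcn2, Saa2 and Saa3 formed the tail, from 8.57 down to 2.99 CPM per kb, also overlapping in turn. In vehicle liver Hpx and Hp overlapped at the top, with means of 2337 and 1859 CPM per kb, and Orm1 stood alone in the third place at 491. Saa1 had moved to the fourth place at 146 CPM per kb and Lcn2 to the fifth at 90.7, overlapping each other and, in turn, Saa2, Orm2, Apcs and Steap4. In I-BET151 liver the mean of Saa1, 905 CPM per kb, was above that of Orm1, 709, but every gene down to Steap4 overlapped with the next. Saa3 was last in all groups, between 2.99 and 5.70 CPM per kb.

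The serum amyloid A proteins are small apolipoproteins of high-density lipoprotein, and Saa1 and Saa2 are their main acute-phase forms in liver. Saa4, a serum amyloid A gene outside the 10, was at 122 to 204 CPM in healthy mice, above both. Saa1 was at 11.5, 5.64, 21.7 and 15.2 CPM in healthy mice 1 to 4, at 42.2, 158, 97.9 and 56.9 CPM in vehicle mice 1 to 4, and at 308, 46.3, 9.74 and 1839.9 CPM in I-BET151 mice 1 to 4. Every vehicle mouse was above every healthy mouse. The I-BET151 mice reached from inside the healthy range to more than 10 times the highest vehicle mouse. The log2 fold change of Saa1 in vehicle over healthy was 2.72 ± 1.10 (SE), with an adjusted p of 0.160 by edgeR's quasi-likelihood test. In I-BET151 over vehicle it was 2.63 ± 1.09 (adjusted p = 0.508), and in I-BET151 over healthy 5.35 ± 1.24 (adjusted p = 0.0128), which passed.

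Saa2 had the same arrangement at a lower level. It was at 3.53, 2.15, 5.29 and 5.03 CPM in healthy mice, at 18.1, 56.3, 38.7 and 22.2 CPM in vehicle mice, and at 131, 19.97, 4.03 and 1237 CPM in I-BET151 mice. Vehicle and healthy mice did not overlap, and I-BET151 mouse 3 was again within the healthy range. The log2 fold changes were 3.08 ± 1.2 in vehicle over healthy (adjusted p = 0.142), 3.36 ± 1.19 in I-BET151 over vehicle (adjusted p = 0.401) and 6.44 ± 1.38 in I-BET151 over healthy (adjusted p = 0.00883). The count of Saa2 per count of Saa1 was 0.243 to 0.380 in healthy mice, 0.356 to 0.429 in vehicle mice and 0.414 to 0.672 in I-BET151 mice, the last value being that of mouse 4.

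Saa3, which macrophages and adipocytes also make, was the least expressed member and had a small range. It was at 1.96, 0.954, 2.24 and 1.5 CPM in healthy mice, at 2.14, 3.16, 4.14 and 3.20 CPM in vehicle mice, and at 3.76, 1.39, 1.45 and 3.93 CPM in I-BET151 mice. The 3 groups overlapped. Its log2 fold changes were 0.93 ± 0.38 in vehicle over healthy (adjusted p = 0.160), -0.26 ± 0.37 in I-BET151 over vehicle (adjusted p = 0.909) and 0.67 ± 0.38 in I-BET151 over healthy (adjusted p = 0.236).

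Orosomucoids, or alpha-1-acid glycoproteins, carry small molecules in plasma and temper immune cells. Orm1 was at 272, 216, 414 and 376 CPM in healthy mice, at 308, 332, 514 and 367 CPM in vehicle mice, and at 724, 232, 89.2 and 1152 CPM in I-BET151 mice. Healthy and vehicle mice overlapped, and 2 I-BET151 mice were above and 2 below all vehicle mice. None of its log2 fold changes, 0.25 ± 0.55, 0.53 ± 0.55 and 0.78 ± 0.55 in the order used above, passed (adjusted p = 0.833, 0.856 and 0.344).

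Orm2 was at 5.70, 4.66, 9.62 and 6.58 CPM in healthy mice, at 17.1, 35.6, 70.7 and 19.2 CPM in vehicle mice, and at 119.5, 17.3, 4.82 and 265 CPM in I-BET151 mice. All vehicle mice were above all healthy mice, and I-BET151 mouse 3 was at the healthy level. Its log2 fold changes were 2.43 ± 0.89 in vehicle over healthy (adjusted p = 0.120), 1.51 ± 0.85 in I-BET151 over vehicle (adjusted p = 0.668) and 3.94 ± 0.94 in I-BET151 over healthy (adjusted p = 0.0149). Orm2 made up 1.69% to 2.24% of the counts of Orm1, Orm2 and Orm3 in healthy mice, 4.53% to 11.2% in vehicle mice and 4.05% to 17.5% in I-BET151 mice, so the ranges of the healthy mice and of both STAM groups did not overlap.

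Lcn2 encodes lipocalin-2, which binds bacterial siderophores and so withholds iron, and which neutrophils make as well as hepatocytes. It was at 10.3, 6.57, 5.96 and 7.85 CPM in healthy mice, at 41.7, 60.3, 185 and 44.7 CPM in vehicle mice, and at 171, 40.6, 12.1 and 566 CPM in I-BET151 mice. It was the only member of which all mice of both STAM groups were above all healthy mice. Its log2 fold change was 3.43 ± 0.91 in vehicle over healthy (adjusted p = 0.0381) and 4.68 ± 0.96 in I-BET151 over healthy (adjusted p = 0.00722), both past the threshold, and 1.25 ± 0.83 in I-BET151 over vehicle (adjusted p = 0.741). Of the 12 neutrophil markers examined, 7 were tested, and all 7 had a log2 fold change above 0 in vehicle over healthy. In that comparison edgeR called Ngp and Csf3r, DESeq2 called 5 and limma-voom with sample weights 6. The summed level of the 12 markers was 3.22 to 5.34 CPM in healthy and 6.23 to 18.4 CPM in vehicle mice. In I-BET151 mice it was 4.70 to 12.7 CPM. Vehicle mouse 3 had the highest sum of all mice, whereas for Lcn2 it was highest among the vehicle mice only. Among I-BET151 mice the sum was highest in mouse 1 and Lcn2 in mouse 4, which had the highest Lcn2 level of all mice. The neutrophil genes Ngp, Mpo, Ltf, Camp and Ly6g were at 0 counts in at least 1 healthy mouse. Ngp was at no more than 2 counts in any healthy mouse. The part of neutrophils in the Lcn2 counts was not tested.

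Apcs encodes serum amyloid P, a pentraxin that is the chief acute-phase pentraxin of the mouse. It was at 25.0, 28.5, 27.2 and 28.4 CPM in healthy mice, at 23.4, 31.2, 68.0 and 41.7 CPM in vehicle mice, and at 139, 36.0, 16.5 and 274 CPM in I-BET151 mice. The healthy mice were within a narrow band that vehicle mouse 1 and I-BET151 mouse 3 fell below. The log2 fold change was 0.59 ± 0.62 in vehicle over healthy (adjusted p = 0.619), 1.5 ± 0.63 in I-BET151 over vehicle (adjusted p = 0.513) and 2.10 ± 0.64 in I-BET151 over healthy (adjusted p = 0.0420), of which the last passed.

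Haptoglobin (Hp) binds free haemoglobin and haemopexin (Hpx) binds free haem. Hp was at 3022, 2923, 3038 and 2894 CPM in healthy mice, at 2174, 2595, 2804 and 2426 CPM in vehicle mice, and at 3904, 2139.8, 607 and 6247 CPM in I-BET151 mice. Every vehicle mouse was below every healthy mouse, by a small amount, and the I-BET151 mice lay on both sides of the other groups. Hpx was at 2223, 2335, 2844 and 2391 CPM in healthy mice, at 2218, 3429.6, 4700.1 and 3665 CPM in vehicle mice, and at 4984, 2082, 765 and 7746 CPM in I-BET151 mice. For Hp the log2 fold changes were -0.25 ± 0.47, 0.37 ± 0.47 and 0.12 ± 0.47 in vehicle over healthy, I-BET151 over vehicle and I-BET151 over healthy, and none passed (adjusted p = 0.803, 0.893 and 0.884). For Hpx they were 0.52 ± 0.51, 0.15 ± 0.51 and 0.67 ± 0.51, with adjusted p of 0.596, 0.972 and 0.383. Counts of Hp per count of Hpx were 1.07 to 1.36 in healthy mice, 0.597 to 0.980 in vehicle mice and 0.783 to 1.03 in I-BET151 mice, below the healthy range in all 8 STAM mice. Both genes together made up 91.3% to 94.0% of the counts of the 10 genes in healthy mice, 87.3% to 90.4% in vehicle mice and 71.9% to 90.4% in I-BET151 mice.

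Steap4 encodes a membrane metalloreductase that takes part in iron and copper uptake and is induced by inflammatory cytokines. It was at 56.3, 70.6, 56.5 and 64.9 CPM in healthy mice, at 54.2, 85.1, 112 and 91.5 CPM in vehicle mice, and at 172, 53.3, 34.4 and 127 CPM in I-BET151 mice. The groups overlapped, and mouse 1, not mouse 4, was the highest I-BET151 mouse. Its log2 fold changes of 0.46 ± 0.39, 0.18 ± 0.39 and 0.64 ± 0.39, in the same order, did not pass (adjusted p = 0.524, 0.951 and 0.273).

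**Figure D2:**
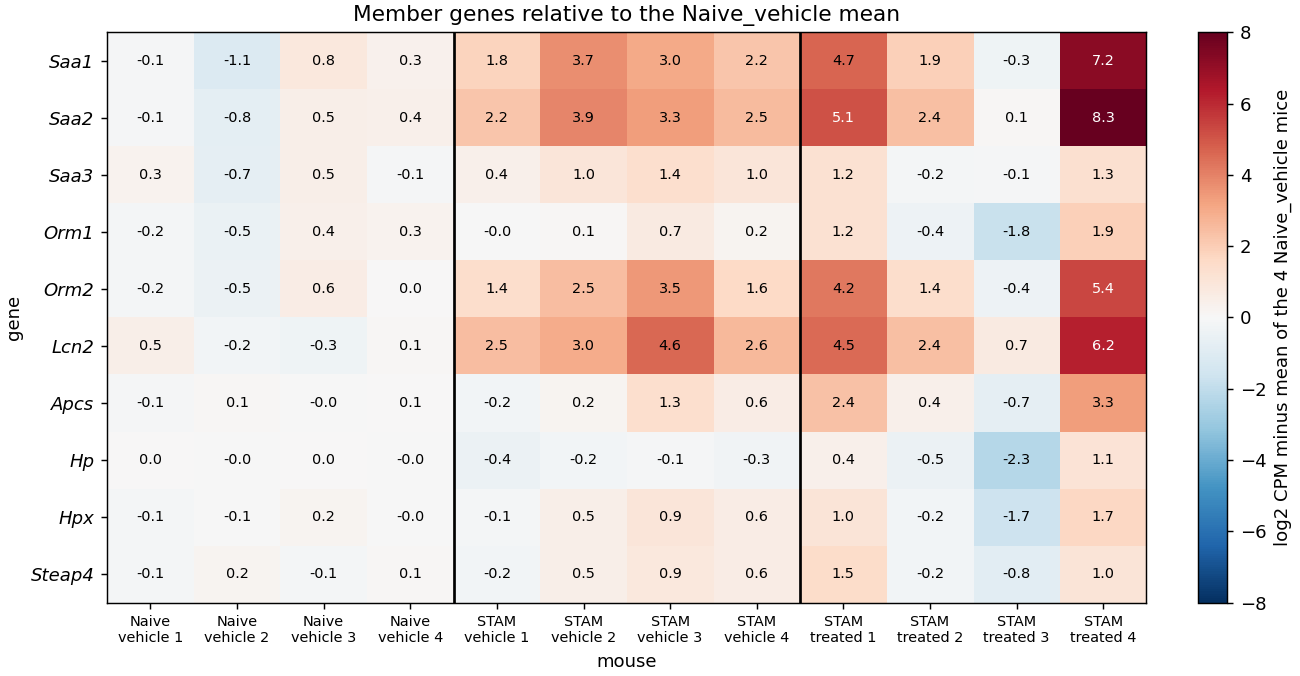
Each cell gives log2 CPM of a gene (rows) in a mouse (columns) minus the mean of the 4 healthy (Naive_vehicle) mice, with red above and blue below that mean. I-BET151 (STAM_treated) mouse 4 is darkest red in Saa1 and Saa2, and mouse 3 is blue in Orm1, Hp and Hpx.

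The first comparison asked what the disease model did to these genes. In vehicle against healthy liver, 1 of the 10 genes, Lcn2, was higher past the threshold of 0.05 and none was lower, where 5.72% of all 16823 genes tested were higher and 1.38% lower. The median of the log2 fold changes was 0.76 for the members and 0.01 for all tested genes, and 9 of 10 were above 0. The 4 mice of each group did not overlap for Saa1, Saa2, Orm2 and Lcn2 (all above, as in 14.2% of tested genes) and for Hp (all below, as in 12.2%). A fit of only these 2 groups called 5 of the 10 higher, namely Saa1, Saa2, Saa3, Orm2 and Lcn2, where 12.9% of its genes were higher. With I-BET151 mouse 3 left out of the common fit, 4 were higher (Saa1, Saa2, Orm2 and Lcn2), with a background of 12%. Conversely the call of Lcn2 was lost in 7 of 12 fits that each left out 1 mouse, namely those without healthy mouse 1, 2, 3 or 4 and without vehicle mouse 2, 3 or 4, with adjusted p of at most 0.131. A fit with sequencing lane as a covariate, which leaves 4 residual degrees of freedom, called none of the 10 (Lcn2 2.70, adjusted p = 0.806) and 0.22% of genes.

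The second comparison asked what I-BET151 did in the diseased liver. Against vehicle, edgeR's quasi-likelihood test called none of the 10 genes past the threshold of 0.1, where 0.351% of tested genes were called. At an unadjusted p under 0.05 there were 3 (Saa1, Saa2 and Apcs), against 8.68% of tested genes. DESeq2 called 0 (1.5% of its genes), limma-voom with sample weights 3 (Saa2, Orm2 and Apcs, against 7.16% of genes) and the fit of only these 2 groups 0 (0.048%). DESeq2 without I-BET151 mouse 3, chosen after seeing the data, called 4 (Saa1, Saa2, Apcs and Hp, against 8.32% of its genes). The members had a median log2 fold change of 0.89, where all tested genes had 0.02, and 9 of 10 were above 0, all but Saa3. In no gene did the I-BET151 mice lie all above or all below the vehicle mice, which 2.41% and 2.63% of tested genes did.

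In 4 of these 9 genes the direction rested on mouse 4. Without I-BET151 mouse 4, the log2 fold change over vehicle fell to 0.45 in Saa1, 0.62 in Saa2, 0.41 in Orm2 and 0.64 in Apcs, and it turned below 0 in Orm1 (-0.12), Lcn2 (-0.15), Hp (-0.17) and Hpx (-0.42). Without mouse 3, by contrast, Saa2 (3.78, adjusted p = 0.0871) and Apcs (1.88, adjusted p = 0.0977) passed the threshold of 0.1, where 2.38% of genes were called. Without mouse 1, Steap4 was at -0.26, and without vehicle mouse 1, Hpx was at -0.014.

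**Figure D3:**
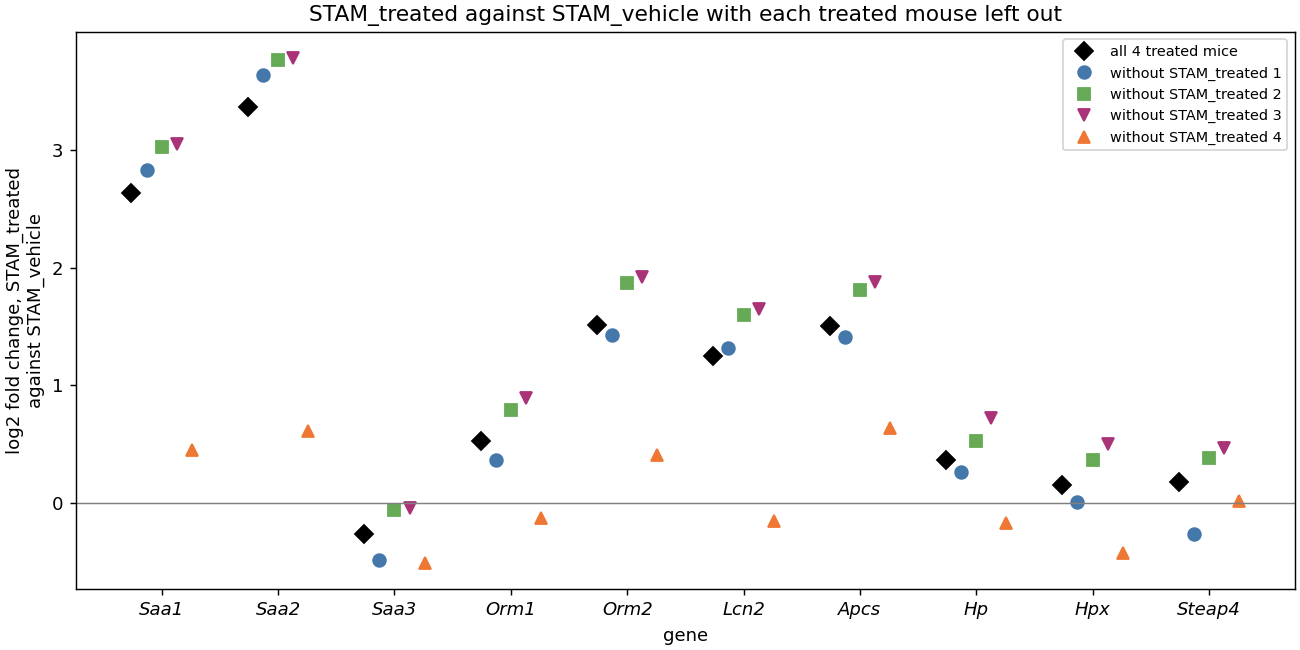
Log2 fold change of each gene in I-BET151 (STAM_treated) over vehicle (STAM_vehicle) mice from the fit of all mice (black diamonds) and from fits without 1 I-BET151 mouse. Leaving out mouse 4 (orange triangles) lowered every gene, from 2.63 to 0.45 in Saa1.

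The third comparison set I-BET151 against healthy liver. It shares its I-BET151 mice with the second comparison and its healthy mice with the first, so the 3 are not independent. Of the 10 genes, 5 were higher past the threshold of 0.05 (Saa1, Saa2, Orm2, Lcn2 and Apcs) and none was lower, where 9.88% of tested genes were higher and 5.25% lower. The median log2 fold change was 1.44 for the members and 0.06 for all tested genes. Only Lcn2 had all I-BET151 mice above all healthy mice, as 10.9% of tested genes did. For Saa1, Saa2 and Orm2, 3 of 4 mice were above the healthy range and mouse 3 within it. The calls of Saa1, Saa2 and Lcn2 held in all 12 fits without 1 mouse, that of Orm2 was lost without healthy mouse 2, and that of Apcs was lost in 9 of the 12. Without I-BET151 mouse 4 the log2 fold changes of the first 4 were 3.16, 3.69, 2.83 and 3.27 and still passed, where 7.75% of genes were higher, and that of Apcs did not. With lane as a covariate none of the 5 passed (log2 fold changes 1.74 to 4.97, adjusted p from 0.371 to 0.606), where 0.505% of genes were called.

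**Figure D4:**
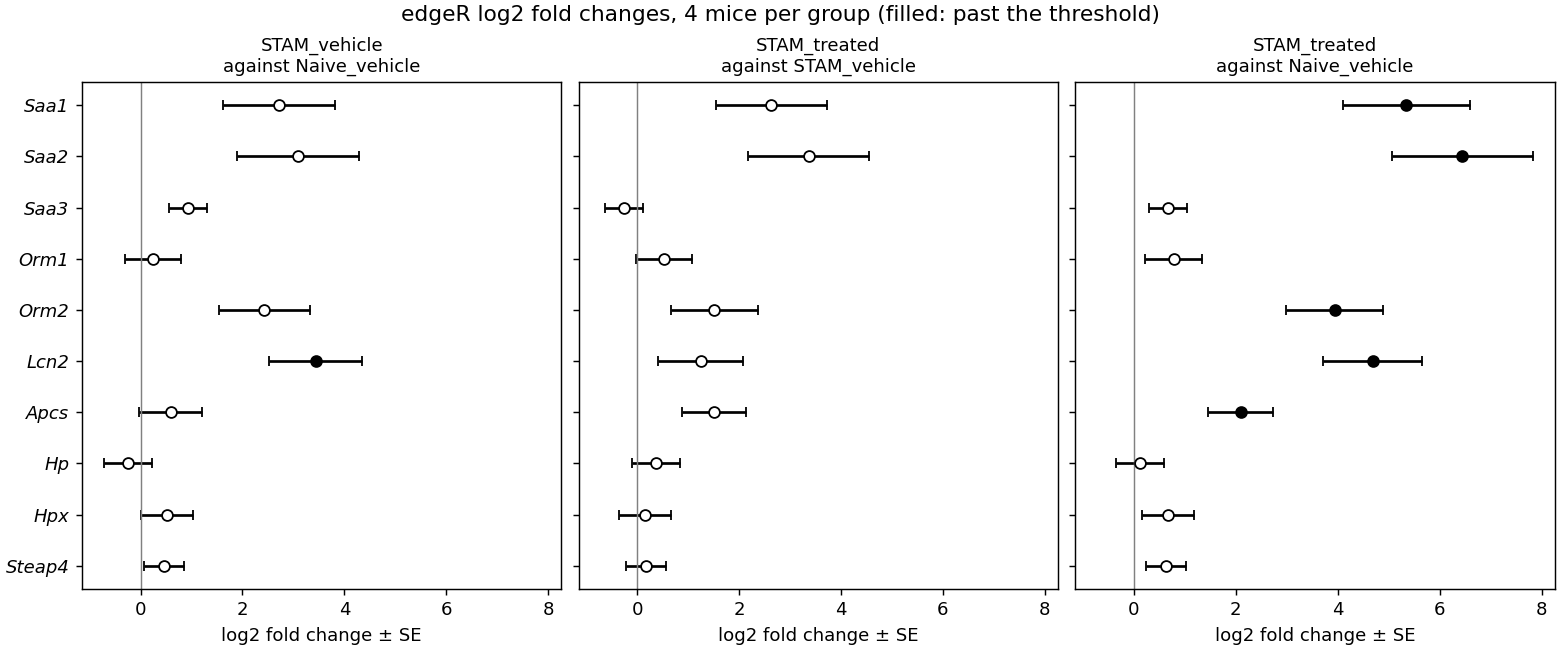
Log2 fold changes with standard errors (horizontal axes) of the 10 genes in the 3 comparisons, from 1 edgeR fit of 12 mice. Filled points passed the threshold, which were Lcn2 for vehicle over healthy, none for I-BET151 over vehicle, and Saa1, Saa2, Orm2, Lcn2 and Apcs for I-BET151 over healthy.

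The I-BET151 mice fell in the same order in most of the genes. In 8 of the 10 genes the order from highest to lowest was mouse 4, 1, 2 and 3, an order found in 5.08% of tested genes. With mouse 3 left out, mice 4, 1 and 2 were in this order in 9 genes, as in 17.98% of tested genes. Mouse 4 was above all vehicle mice in 9 genes and mouse 1 in 8. Mouse 2 was above all vehicle mice in none and below all of them in 6, and mouse 3 was below all of them in 10. Shares of all tested genes were not counted for these positions. Mouse 4 was highest of its group in 15.4% of tested genes, and mouse 3 was lowest of its group in 39.3%. The median SD of log2 CPM over all tested genes was 0.42 among I-BET151 mice and 0.19 among vehicle mice. The highest I-BET151 mouse exceeded the lowest 307-fold in Saa2, 189-fold in Saa1, 55-fold in Orm2, 46.8-fold in Lcn2, 16.7-fold in Apcs, 12.9-fold in Orm1, 10.3-fold in Hp, 10.1-fold in Hpx, 5.02-fold in Steap4 and 2.84-fold in Saa3. The lowest mouse was mouse 3 in all but Saa3. With it left out the ratios were 61.9 in Saa2, 39.7 in Saa1, 15.3 in Orm2, 13.9 in Lcn2, 7.62 in Apcs, 4.96 in Orm1, 3.72 in Hpx, 3.23 in Steap4 and 2.92 in Hp, and that of Saa3 did not change. Among vehicle mice these ratios were between 1.29 in Hp and 4.45 in Lcn2.

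By the SD of log2 CPM over the I-BET151 mice, Saa2 (3.55) ranked first and Saa1 (3.28) second of 16823 tested genes. Orm2 ranked 7, Lcn2 14, Apcs 41, Orm1 67, Hpx 121 and Hp 132, whereas Steap4 ranked 639 and Saa3 1965. The median over all tested genes was 0.42. Without mouse 3, Saa2 ranked 3 (SD 2.98), Saa1 8 (2.66), Orm2 23, Lcn2 28, Apcs 88, Orm1 204, Hpx 431, Steap4 588, Saa3 700 and Hp 873, with a median over all tested genes of 0.21. Among vehicle mice the highest-ranked member was Lcn2, at rank 149 with an SD of 1.00, and vehicle mouse 1 was lowest of its group in all 10 genes, as in 28.1% of tested genes. Hp, which ranked 132 among I-BET151 mice, had an SD of 0.03 among healthy mice, lower than that of 98.6% of tested genes.

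**Figure D5:**
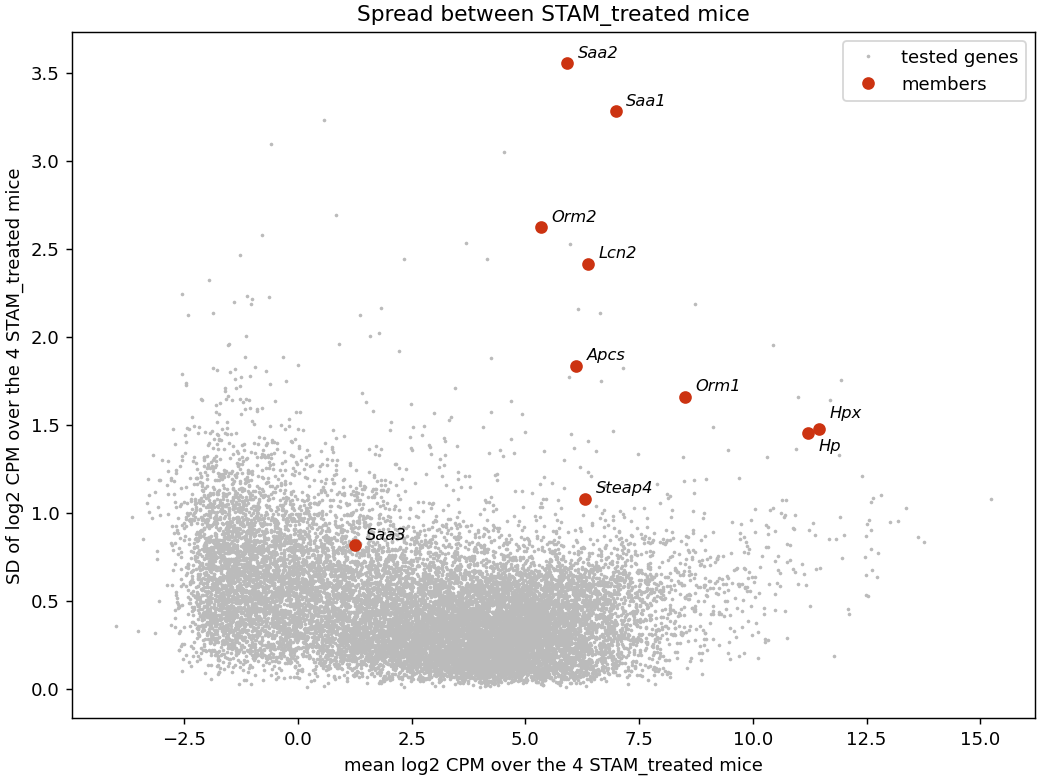
Mean (horizontal axis) and SD (vertical axis) of log2 CPM over the 4 I-BET151 (STAM_treated) mice for 16823 tested genes in grey and the 10 members in red. Saa2 at 3.55 and Saa1 at 3.28 have the highest SDs, and Saa3 at 0.82 lies within the grey cloud.

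Since hepatocyte markers were low in I-BET151 mouse 3, the genes were also set against the mean log2 CPM of those 7 markers, a choice made after seeing the data. Mouse 3 was then below all vehicle mice in 7 genes rather than 10, and above all healthy mice in 8 rather than 1. The order of mice 4, 1, 2 and 3 held in 5 genes. Of the 7 markers, Alb, Ttr and Apoa1 are also negative acute-phase genes, and with the other 4 alone these counts were 7, 7 and 5. The mean of the 7 markers was 10.5 in mouse 3, against 12.4 to 12.5 in healthy and 11.6 to 12.1 in vehicle mice. This scale therefore raises every gene of mouse 3 against both groups, whatever the gene. Shares of all tested genes were not counted on it. Saa1 relative to the 7 markers was at -3.44, -6.57, -7.19 and -1.21 in I-BET151 mice 1 to 4, against -6.50 to -4.63 in vehicle mice. Mice 2 and 3 were thus below and mice 1 and 4 above the vehicle range. Relative to the other 4 markers it was at -2.36, -5.59, -6.38 and -0.16, against -5.77 to -3.90 in vehicle mice. Mouse 2 was then within the vehicle range, as it was in CPM. For Hp, vehicle mice averaged -0.60 and healthy mice -0.87 on the scale of the 7 markers, the reverse of the order in CPM (0.23 and 0.16 with the 4 markers). The markers themselves were lower in the STAM livers. All 7 had a log2 fold change below 0 in vehicle and in I-BET151 over healthy (medians -0.52 and -0.71), and in 4 and 5 of them the groups did not overlap, as in 12.2% and 8.85% of tested genes. Their summed level was 106867 to 125468 CPM in healthy and 55675 to 73856 CPM in vehicle mice. edgeR called none of them in any comparison. At an unadjusted p under 0.05 there were 1, 0 and 3 in the order of the comparisons, and DESeq2 called 0, 0 and 3, and limma-voom with sample weights 3, 0 and 2.

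Of the 12 mice, 9 shared a sequencing lane with a mouse of another group, and the other 3 were in lanes that held 1 group. Lane 2 held healthy mouse 1, vehicle mouse 4 and I-BET151 mouse 4, and within it Saa1 went from 11.5 to 56.9 to 1839.9 CPM and Lcn2 from 10.3 to 44.7 to 566 CPM. All 10 genes were higher in the I-BET151 than in the vehicle mouse of lane 2 and of lane 6 (median log2 differences 2.18 and 1.85), and all 10 were lower in lane 7 (median -2.57), which held I-BET151 mouse 3. These differences also depend on which vehicle mouse shared the lane. Lane 6 held vehicle mouse 1, lowest of its group in all 10 genes (28.1% of tested genes). Lane 7 held vehicle mouse 3, highest in 8 (29.3% of tested genes). In lane 5, which held healthy mouse 4 and I-BET151 mouse 2, 5 genes were higher and 5 lower in the I-BET151 mouse (median 0.12).

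Other positive acute-phase genes of the liver were examined as a list of 20, all tested. By edgeR's test Orm3, another orosomucoid gene, was the 1 gene that rose in vehicle over healthy (log2 fold change 2.98 ± 0.45, adjusted p = 0.00181) and in I-BET151 over healthy (3.05 ± 0.45, adjusted p = 0.00107). In those 2 comparisons DESeq2 called 1 and 2 of the 20, limma-voom with sample weights 6 and 12, and edgeR without I-BET151 mouse 3 called 4 and 7. Orm3 was at 2.52 to 7.47 CPM in healthy, 37.2 to 49.9 CPM in vehicle and 23.7 to 99.0 CPM in I-BET151 mice. The list's median log2 fold changes were near 0 in vehicle over healthy and 0.64 in I-BET151 over healthy. In I-BET151 over vehicle edgeR and DESeq2 called 0 of the 20, as did an unadjusted p under 0.05, limma-voom with sample weights called 8, and the median was 0.48. The I-BET151 mice were in the order 4, 1, 2 and 3 in 17 of the 20, an order found in 5.08% of tested genes. The exceptions were Orm3, Hamp (hepcidin) and Agt (angiotensinogen), which are named here after their values were seen. The same order was found in 3 of 8 negative acute-phase genes, 0 of 7 hepatocyte markers and 3 of 7 tested neutrophil markers.

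Over the 12 mice, the tested genes outside the list whose log2 CPM followed the mean z-score of the 10 genes most closely were Fgl1 (Pearson's r = 0.979, Spearman's rho = 0.909), Serpina3n (0.972 and 0.993), Slc41a2 (0.967 and 0.923), Itih4 (0.965 and 0.818) and Prcp (0.963 and 0.951). These are descriptions over mice that share group differences, and 3 of the 5 (Fgl1, Serpina3n and Itih4) belong to the list of 20 above. Fgl1, a hepatocyte-secreted fibrinogen-like protein, was at 169 to 236 CPM in healthy, 177 to 708 CPM in vehicle and 67.5 to 1653 CPM in I-BET151 mice. Serpina3n, a protease inhibitor, was at 623 to 871, 1115 to 1583 and 278 to 6826 CPM in the same order of groups.

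Negative acute-phase genes, which fall in inflammation, were 8. In vehicle over healthy 7 of 8 had a log2 fold change below 0, with a median of -0.48. In 5 all vehicle mice were below all healthy mice, as in 12.2% of tested genes. In edgeR 0 passed, 1 had an unadjusted p under 0.05, DESeq2 called 0 and limma-voom with sample weights 4. In I-BET151 over vehicle 4 were above and 4 below 0 (median 0.015), and none of these tools called any. In I-BET151 over healthy 7 of 8 were below 0 (median -0.475), where edgeR called 0, DESeq2 1 and limma-voom with sample weights 2. Their summed level was 101605 to 119158 CPM in healthy, 51816 to 80422 CPM in vehicle and 21436 to 96583 CPM in I-BET151 mice. Among the I-BET151 mice the sum was highest in mouse 4 and lowest in mouse 3.

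Among the cytokines of the interleukin-6 family, Il6, Il11, Osm and Il22 were at or near 0 and were not tested. Il6 was at no more than 10 counts and Osm at no more than 8 counts in any mouse, and Il22 was at 0 in all 12, which allows up to 0.0538 to 0.0904 CPM. Lif, a cytokine of this family, rose in vehicle and I-BET151 liver over healthy liver, though at no more than 0.699 CPM (log2 fold changes 2.80 ± 0.74 and 3.39 ± 0.72, adjusted p = 0.0377 and 0.00851). Its receptor gene Lifr fell in both (-0.71 ± 0.18 and -0.68 ± 0.18, adjusted p = 0.0324 and 0.0227). Socs3, the feedback inhibitor of STAT3 signalling, was at 9.59 to 11.9 CPM in healthy, 12 to 22.4 CPM in vehicle and 12.5 to 33.5 CPM in I-BET151 mice, and it rose in I-BET151 over healthy (1.2 ± 0.26, adjusted p = 0.00902). Junb fell in that comparison (-0.45 ± 0.12, adjusted p = 0.0218). These were the 2 that edgeR called among 10 genes of the STAT3 list, of which DESeq2 called 2 and limma-voom with sample weights 4. In I-BET151 over vehicle, Junb was lower in every I-BET151 mouse than in any vehicle mouse (-0.50 ± 0.12, adjusted p = 0.148), and edgeR called 0 of the list, DESeq2 1, limma-voom with sample weights 2 and an unadjusted p under 0.05 gave 2.

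Of the interleukin-1 and TNF list, Il1rap, the accessory chain of the interleukin-1 receptor, fell in vehicle and I-BET151 over healthy liver (-0.78 ± 0.17 and -0.96 ± 0.18, adjusted p = 0.0172 and 0.00381), and it was the 1 gene of 8 tested that edgeR called. DESeq2 called 2 and limma-voom with sample weights 3 in each of these comparisons. Among 8 genes of NF-kappaB subunits and feedback, edgeR called 0 in each comparison, with 3, 2 and 3 at an unadjusted p under 0.05, DESeq2 called 0, 0 and 1, and limma-voom with sample weights 4, 1 and 2. Of 8 hepatic transcription factors, Ppara fell in I-BET151 over healthy (-0.76 ± 0.17, adjusted p = 0.0115), whereas Cebpb and Cebpd, named here after their values were seen, were at log2 fold changes of 0.21 and 0.28 that did not pass (adjusted p = 0.605 and 0.506). Of 6 glucocorticoid-responsive genes, Tsc22d3 fell in I-BET151 over healthy (-1.51 ± 0.32, adjusted p = 0.00817).

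Receptors and partners of the encoded proteins were 10. Cd36, a scavenger receptor for fatty acids that also binds serum amyloid A, rose in vehicle over healthy (1.78 ± 0.31, adjusted p = 0.00413) and in I-BET151 over healthy (1.86 ± 0.31, adjusted p = 0.0022). Tlr2 rose in both (1.2 ± 0.27 and 1.13 ± 0.27, adjusted p = 0.0171 and 0.0145), as did Mmp9, the protease that lipocalin-2 binds (1.30 ± 0.35 and 1.56 ± 0.35, adjusted p = 0.0382 and 0.0107). Over all 110 tested genes of the lists beside the members, edgeR called 15 in vehicle over healthy, where 5.72% of tested genes were higher and 1.38% lower. It called 19 in I-BET151 over healthy, where 9.88% were higher and 5.25% lower. In these comparisons DESeq2 called 21 and 30, and limma-voom with sample weights 44 and 53. In I-BET151 over vehicle edgeR called 0 (0.351% of tested genes), and 12 had an unadjusted p under 0.05 (8.68%). There DESeq2 called 2 (1.5% of its genes) and limma-voom with sample weights 14 (7.16%).

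Markers of other cell types were examined as well. Of 8 macrophage markers, 4 rose in vehicle over healthy, namely Cd68, Clec4f, Marco and Adgre1, where 5.72% of tested genes were higher. In I-BET151 over healthy edgeR also called 4 higher, where 9.88% of tested genes were. In each of these comparisons DESeq2 called 5 and limma-voom with sample weights 6. In I-BET151 over vehicle edgeR called 0, DESeq2 0 and limma-voom with sample weights 1. The summed level of the 8 was 104 to 158 CPM in healthy, 182 to 344 CPM in vehicle and 154 to 315 CPM in I-BET151 mice. Of 6 adipocyte markers, Adipoq, Lep, Plin1 and Retn were at no more than 8 counts in any mouse and were not tested, and Cfd and Cidea rose in vehicle over healthy (5.52 ± 0.81 and 4.68 ± 0.60, adjusted p = 0.00155 and 0.000686). Of 5 cholangiocyte markers, 3 had a log2 fold change above 0 and 2 below 0 in each comparison with healthy liver (medians 0.37 and 0.11). Only Krt7 was called by edgeR, in I-BET151 over healthy (0.82 ± 0.22, adjusted p = 0.0257), where Sox9 was at -0.48 ± 0.18 (adjusted p = 0.0900) and Epcam at -0.14 ± 0.28 (adjusted p = 0.769). The part of these cells in the members' counts was not tested.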

How the data were processed

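Liver RNA of 12 mice was read from a stranded mRNA library. Per the study's methods and processing notes, the authors mapped reads to mm10 with STAR 2.5.1b and deposited whole-number counts of uniquely mapped reads per gene from HTSeq, although the deposited names point to featureCounts; the strand setting is not given in the sources used here. The deposited counts are not normalised. Symbols and coordinates came from GENCODE M21 (47310 of 47729 identifiers matched), and promoters from RefSeq.

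Counts were analysed with edgeR 4.0.16 in R 4.3.3. All 12 mice entered 1 fit with TMM normalisation and the filterByExpr filter (minimum count 10), and groups were compared by quasi-likelihood F tests, adjusted over all tested genes (Benjamini-Hochberg). The threshold was an adjusted p of 0.05, or 0.1 for STAM_treated against STAM_vehicle, as in the study. The SE is the log2 fold change divided by the square root of F. Log2 CPM used a prior count of 2. Levels per kb used the APPRIS principal transcript, since longer ones retain introns. Nothing in the labels ties mice to litters, so p-values measure the spread between these mice. Replicate mice differed by more than sampling noise (chi-square per degree of freedom of at least 35.3 over 14219 genes).

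The members and all gene lists were chosen with earlier results of these data known. Named were all members, the called genes of other lists (at most 3 per list and comparison), genes at or near 0, and the 5 genes most like the members. Alternatives were DESeq2 1.42.0, limma-voom 3.58.1 with sample weights, other normalisations and filters, 2-group fits, replicate block, lane covariate, other thresholds and leaving out each mouse. DESeq2 without STAM_treated mouse 3, the spread without that mouse, the scalings to hepatocyte markers and the principal transcripts were added after seeing the data. The scripts were tested on simulated data.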

Additional observations from a re-analysis of the deposited data

Results flagged for a closer look

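In 8 of 90 groups of 4 mice examined, 1 mouse lay far from the other 3 in CPM by Dixon's test. This test sets the gap to the nearest mouse against the whole range. Chance flags about 1 in 20 groups (4.5 expected) only if groups are independent and values normally distributed. The groups share mice and CPM were not log-transformed, so no excess over chance can be read from these numbers. The test was not applied to log2 CPM. On that scale Saa1 in I-BET151 mice 1 to 4, minus the healthy mean, was at 4.66, 1.93, -0.31 and 7.24. Among the members, Saa1 was at 1839.9 CPM and Saa2 at 1237 CPM in I-BET151 mouse 4, the next mice being at 308 and 131 CPM, and Lcn2 was at 185 CPM in vehicle mouse 3, the next being at 60.3 CPM. Orm3 was at 99.0 CPM in I-BET151 mouse 4, against 34.7 CPM in the next mouse. Ngp, a neutrophil granule gene, was at 1.61 CPM in vehicle mouse 3 against 0.340 CPM in the next, and Csf3r, the G-CSF receptor, was at 4.13 CPM in healthy mouse 1 against 2.53 CPM. Cd36 was low at 79.9 CPM in I-BET151 mouse 3, the next being at 248 CPM, and Tsc22d3 was low at 51.1 CPM in I-BET151 mouse 1, the next being at 67.5 CPM.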

How the results depend on the processing

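In vehicle over healthy, edgeR called 1 member and 1195 genes. A fit of only the 2 groups compared gave 5 members and 3879 genes, limma-voom with sample weights 5 and 5672, DESeq2 without I-BET151 mouse 3 5 and 4378, and the lane covariate 0 and 37. DESeq2 gave 1892 genes and a threshold of 0.1 gave 2052. Leaving out 1 mouse gave 0 to 4 members and 546 to 3779 genes. Both were highest without I-BET151 mouse 3, and genes numbered 546 to 672 without healthy mouse 2, 3 or 4 or vehicle mouse 3 or 4.

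In I-BET151 over vehicle, edgeR called 0 members and 59 genes. Limma-voom with sample weights gave 3 members and 1205 genes, DESeq2 without I-BET151 mouse 3 4 and 1288, and the lane covariate 0 and 0. DESeq2 gave 268 genes, no low-count filter 101, the fit of only the 2 groups compared 8 and a threshold of 0.05 gave 26. Leaving out 1 mouse gave 0 to 2 members and 13 to 403 genes. Both were highest without I-BET151 mouse 3, genes numbered 103 without mouse 2, and they were at 13 to 33 without vehicle mouse 2 or 4 or I-BET151 mouse 1 or 4.

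In I-BET151 over healthy, edgeR called 5 members and 2546 genes. Limma-voom with sample weights gave 9 members and 4880 genes, and the lane covariate 0 and 85. The fit of only the 2 groups compared gave 1262 genes, DESeq2 without I-BET151 mouse 3 4105 and a threshold of 0.1 gave 4162. Leaving out 1 mouse gave 3 to 5 members and 1292 to 3731 genes. Members were fewest without healthy mouse 2, and genes were at 1292 to 1377 without healthy mouse 2, 3 or 4.

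Mice with the same number did not deviate together (mean r of deviations from the group means -0.146 to -0.0623), so the numbers did not pair the mice. With the replicate number as a block, members called were 0, 0 and 1 (Lcn2) and genes 742, 10 and 1573 in the 3 comparisons; Hpx turned to -0.030 in I-BET151 over vehicle and Hp to -0.092 in I-BET151 over healthy.

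The lane covariate turned Hp to 0.071 in vehicle over healthy and Hpx to -0.088 in I-BET151 over vehicle, and limma-voom with sample weights turned Saa3 to 0.055 in the latter. With each mouse left out, log2 fold changes in I-BET151 over vehicle ranged from -0.12 to 0.90 in Orm1, -0.15 to 2.01 in Lcn2, -0.17 to 0.72 in Hp, -0.42 to 0.50 in Hpx and -0.26 to 0.47 in Steap4, and that of Hp in I-BET151 over healthy from -0.43 to 0.45. The cause was not tested. All members had at least 36 counts in every mouse. The lowest count was in Saa3, which was at 36 to 92 counts in healthy mice. Counting error was not set against the spread between mice for each member.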
